A study of Homo sapiens with 6 samples.

Results

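The keratin genes are those whose symbol is KRT followed by a number and at most 1 further letter, with the keratin-associated protein genes (KRTAP) left out. On this platform 55 keratin genes, of 18656 genes in all, were read by 473 probe sets that name a single gene. They were measured in AGS, an established human gastric adenocarcinoma line. In 3 arrays the cells had received an inhibitor of miR-25-3p, and in the other 3 arrays a non-targeting control RNA. Both groups were lipid-transfected, transfected again at 24 h and harvested at 48 h after the first transfection. The labels name no genetic change in either group. From 500 ng of total RNA per sample, labelled cDNA was hybridized to Human Gene 1.0 ST arrays. The labels call the 3 samples of a group biological replicates without saying whether cultures were started separately, so p-values measure the spread between these samples. The comparison asks which keratin transcripts AGS cells show and whether their levels differ when miR-25-3p is inhibited. The mature microRNA itself was not measured.

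Keratins are the intermediate filament proteins of epithelial cells. Acidic type I and basic type II keratins pair with each other to build the filament, so a cell normally makes at least 1 of each type. Simple, single-layered epithelia such as that of the stomach carry KRT8 and KRT18, often with KRT19, KRT7 or KRT20, while stratified epithelia and hair use other pairs. The filaments are anchored at desmosomes and hemidesmosomes and give epithelial cells their resistance to mechanical stress.

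The inhibitor was designed against a microRNA encoded in an intron of MCM7. A microRNA recognizes its targets mainly through its seed, bases 2 to 8 from the 5′ end, which are in capitals here. The sequence is shown beside that of miR-92a-3p, because RefSeq (GRCh38.p14) lists 6 human mature microRNAs with this same seed and miR-92a-3p shares 18 of its 22 bases with miR-25-3p position by position. The others are miR-32-5p, miR-92b-3p, miR-363-3p and miR-367-3p. The locus of miR-25-3p is chr7:100093571-100093592 on the minus strand.
miR-25-3p: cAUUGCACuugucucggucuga
miR-92a-3p: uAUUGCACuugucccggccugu

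AGS cells of both groups showed the keratins of a simple epithelium. KRT8, KRT18 and KRT19 had by far the brightest gene values of the family, and KRT17 was also clearly above background. By gene value, most of the other keratins lay among or little above silent genes. Probe sets shared by KRT6A, KRT6B and KRT6C do not enter the gene values. Their means ran from 5.86 to 9.43 over the 6 arrays, all above the olfactory receptor probe set level of 4.68. No keratin passed the test for a difference between the groups. A gene value is the mean log2 signal of the probe sets of that gene, and a difference is inhibitor minus control on that log2 scale. Probes differ in brightness, so each gene was set against silent genes and not against other keratins as an amount of RNA. The 371 olfactory receptor genes, which a gastric line is not thought to use, had a median of 2.68 and a 95th percentile of 4.28 over the 6 arrays. These 371 genes were read by 516 probe sets and the 55 keratins by 473, so an olfactory receptor gene value averages fewer probe sets. What this does to the percentile was not tested. The 72 KRTAP genes, which belong to the hair shaft, had a median of 3.92 and a 95th percentile of 5.93, so the level of a silent gene depends on which silent genes are taken. Over the 6 arrays, 29 of 55 keratins (52.7%) lay above the olfactory receptor percentile, against 71% of all genes. Only 7 keratins (12.7%) lay above the KRTAP percentile, against 48% of all genes: KRT8, KRT18, KRT19, KRT17, KRT86, KRT80 and KRT13. The KRTAP percentile was itself among 6 rules for standing above silent genes, so no keratin outside these 7 could pass all 6. Rules set at the olfactory receptor 95th and 99th (4.92) percentiles lie below it, so these 7 had to pass them. The remaining rules, which used every array, most of the probe sets and the median of probe sets, were also passed by the same 7. None of the 6 rules was passed by 22 keratins. By single probe sets, 221 of 473 keratin probe sets (46.7%) exceeded the olfactory receptor level of 4.68, against 67.55% of all probe sets.

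**Figure D1:**
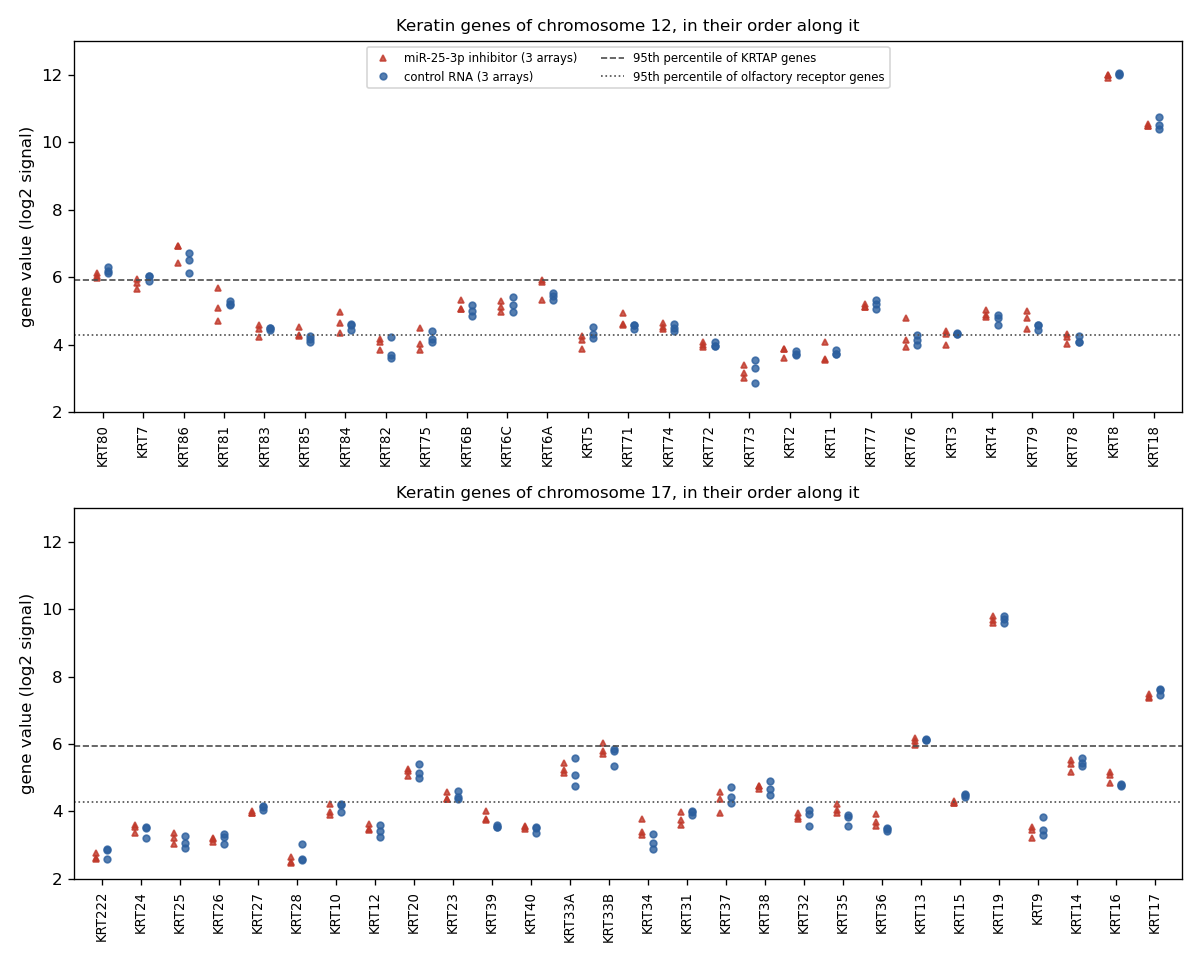
Gene values (log2 signal) of the 55 keratin genes on each array, in their order along chromosome 12 (top) and chromosome 17 (bottom); red triangles are the 3 inhibitor arrays, blue circles the 3 control arrays, and the lines are the 95th percentiles of KRTAP genes (5.93) and olfactory receptor genes (4.28). KRT8 and KRT18 stand at 1 end of the chromosome 12 cluster and KRT19 and KRT17 on chromosome 17, while their neighbours lie near or below the lines.

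Between the groups, limma with Benjamini-Hochberg adjustment over all 18656 genes called 0 of 55 keratins, as it called 0% of all genes, and the smallest adjusted p of a keratin was 0.788. At an unadjusted p under 0.05 there were 6 keratins. Of these, 5 were higher, against 2.95% of all genes, and 1 was lower, against 3.16% of all genes. These were KRT16, KRT34, KRT35, KRT36 and KRT39 on the higher side and KRT15 on the lower side. The count fell to 1 without inhibitor replicate 2 or with limma's trended variance, and to 2 without control replicate 2. Without the dimmest 30% of genes it was 2, but that filter kept only 28 of the 55 keratins and left out KRT34, KRT35, KRT36 and KRT39. The count did not fall in every setting. With the median of probe sets 3 were higher and 4 lower (12.7% of keratins, against 5.88% of all genes). With array weights 6 were higher and 1 lower (12.7%, against 9.05%). All inhibitor arrays lay above all control arrays for 5 keratins (5.2% of all genes) and below them for 2 (7.68% of all genes). These were KRT16, KRT35, KRT36, KRT39 and KRT85 above and KRT15 and KRT27 below. Over the family, 27 keratins had a positive and 28 a negative difference, where 50.5% of all genes were positive. The median difference was -0.0046 for the keratins and 0.0021 for all genes, and that of the keratins became 0.14 when each gene was read from its brightest probe set alone.

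The differences were also small. The most positive was that of KRT34, 1.32-fold, and the most negative that of KRT5, 0.836-fold. The 95% interval of the difference, not adjusted for the number of genes, lay within 2-fold either way for all 55 keratins and within 1.5-fold for 50 of them. Over all genes, 99.2% of the intervals lay within 2-fold and 92.7% within 1.5-fold. In simulations with 3 arrays per group, the test found 89.6% of the genes given a log2 change of 1, 18.5% at a change of 0.5 and 0.8% at 0.3. The spread within a group was of the size of these differences: the median SD of a keratin was 0.153 in inhibitor and 0.125 in control arrays (n = 3 each), against 0.113 and 0.131 over all genes.

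**Figure D2:**
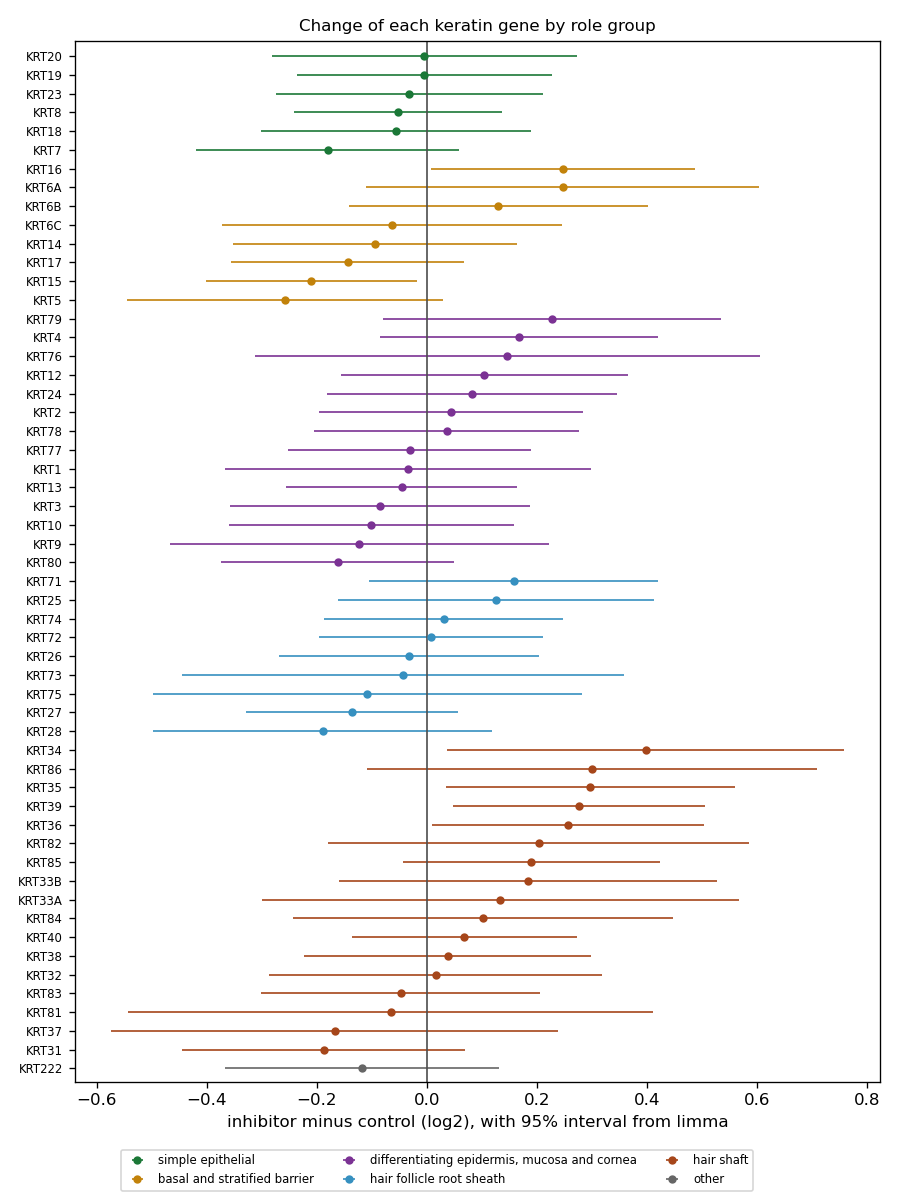
Difference between inhibitor and control arrays (log2, points) with its unadjusted 95% interval from limma (lines) for each of the 55 keratin genes, coloured by role group. The points run from -0.26 for KRT5 to 0.40 for KRT34, and most intervals include 0.

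KRT8 and KRT18 form the type II and type I pair of simple epithelia, and they lie next to each other at the end of the chromosome 12 cluster, before EIF4B. KRT8 read 11.916, 12.007 and 12.001 in inhibitor arrays, against 12.050, 12.003 and 12.027 in control arrays. All 7 of its probe sets lay above the olfactory receptor level, and the groups overlapped. The difference was -0.052 (SE 0.083), with a 95% interval from -0.24 to 0.14. KRT18 read 10.49, 10.54 and 10.48 in inhibitor arrays, against 10.41, 10.76 and 10.51 in control arrays. Control replicate 2 was the highest of the 6, and 1 dim probe set read 4.19 on that array and between 1.40 and 2.47 on the other 5. The difference was -0.056 (SE 0.11) and became 0.060 without the dimmest 30% of probe sets. KRT19, the smallest keratin, which lacks most of the tail domain, read 9.58, 9.81 and 9.68 in inhibitor arrays, against 9.80, 9.58 and 9.70 in control arrays. Its difference was -0.0048 (SE 0.10), with an interval from -0.24 to 0.23.

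KRT7, the usual type II keratin of ducts and glands, was much closer to background. It read 5.64, 5.83 and 5.94 in inhibitor arrays, against 6.03, 6.04 and 5.88 in control arrays. Its mean lay above the olfactory receptor percentile and just below the KRTAP percentile, and 8 of its 10 probe sets exceeded the olfactory receptor level. The difference was -0.18 (SE 0.105, adjusted p 0.788 in limma), negative on 8 of 10 probe sets but 0.22 on the brightest. KRT20, a marker of intestinal, gastric surface and urothelial cells, read 5.05, 5.25 and 5.21 in inhibitor arrays, against 4.98, 5.14 and 5.39 in control arrays. Its probe sets reached at most 6.50, and 5 of 8 exceeded the olfactory receptor level. KRT23, another type I keratin, read 4.59, 4.36 and 4.37 in inhibitor arrays, against 4.36, 4.61 and 4.44 in control arrays, with 3 of 10 probe sets above that level. All 6 simple epithelial keratins had a difference below 0, with a median of -0.042, and 0 were called. However, 2 of them were positive with each array centred on its median, 1 with quantile normalization, 2 with the median of probe sets and 3 on the brightest probe set. More probe sets were higher than lower in inhibitor arrays for KRT8, KRT18 and KRT20, and more were lower for KRT7, KRT19 and KRT23.

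**Figure D3:**
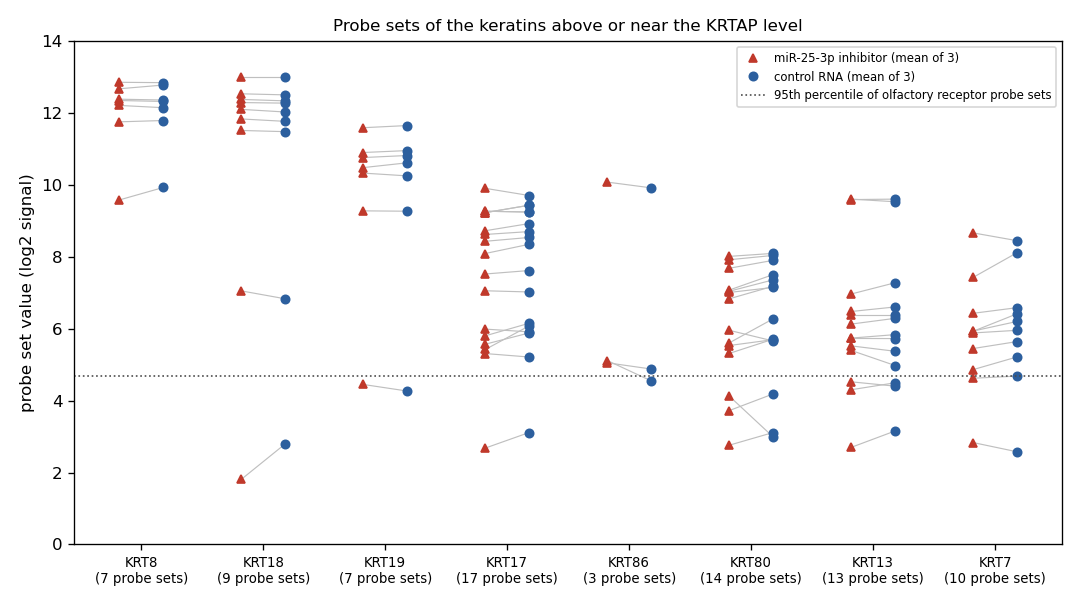
Values (log2 signal, mean of 3 arrays per group) of every single-gene probe set of 8 keratins, with inhibitor (red triangles, left) joined to control (blue circles, right) and the 95th percentile of olfactory receptor probe sets (4.68) dotted. All KRT8 probe sets and 8 of 9 KRT18 probe sets lie above the line, whereas KRT86 has 1 bright probe set at 10.00 and 2 near the line.

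Of the keratins of basal cells and stratified barriers, KRT17 alone had a gene value above the KRTAP percentile. Probe sets shared by the KRT6 trio do not enter the gene values and had means from 5.86 to 9.43 over the 6 arrays. KRT17, a type I keratin of skin appendages that is induced by injury and common in carcinomas, read 7.37, 7.40 and 7.49 in inhibitor arrays, against 7.64, 7.61 and 7.44 in control arrays. The groups overlapped through control replicate 3, and the difference was -0.14 (SE 0.093). Of its 17 probe sets, 16 exceeded the olfactory receptor level and 11 were lower in inhibitor arrays, though the brightest was 0.20 higher. KRT14, the type I keratin of basal keratinocytes, read 5.51, 5.40 and 5.18 in inhibitor arrays, against 5.35, 5.44 and 5.58 in control arrays. Its type II partner KRT5 was below the olfactory receptor percentile, at 3.88, 4.14 and 4.25 in inhibitor arrays, against 4.52, 4.31 and 4.21 in control arrays. KRT5 had the most negative difference of the family, -0.26 (SE 0.13), which was 0.16 on its brightest probe set and ran from -0.34 to -0.15 when 1 array was left out.

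KRT15, a type I keratin of basal and hair bulge cells, was the lower keratin with the smallest p. It read 4.24, 4.31 and 4.25 in inhibitor arrays, against 4.48, 4.53 and 4.42 in control arrays. The groups did not overlap, but the difference of -0.21 (SE 0.084, adjusted p 0.788 in limma) was measured close to the level of silent genes, with 3 of 11 probe sets above it, and was 0.053 on the brightest. KRT16 and KRT6A, KRT6B and KRT6C are the keratins of wounded and hyperproliferating epidermis. KRT16 read 4.83, 5.09 and 5.16 in inhibitor arrays, against 4.79, 4.75 and 4.80 in control arrays. The groups did not overlap, 10 of 12 probe sets were higher in inhibitor arrays, and the difference was 0.25 (SE 0.11, adjusted p 0.788 in limma). Its mean of 4.90 over the 6 arrays lay just below the olfactory receptor 99th percentile of 4.92, with 8 of 12 probe sets above the olfactory receptor level.

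KRT6A read 5.31, 5.90 and 5.85 in inhibitor arrays, against 5.44, 5.54 and 5.33 in control arrays. Inhibitor replicate 1 lay below all control arrays, and the difference of 0.25 (SE 0.16) was -0.053 with the median of its 5 probe sets. KRT6B read 5.05, 5.32 and 5.05 in inhibitor arrays, against 5.18, 4.85 and 4.99 in control arrays. KRT6C, on 1 probe set, read 5.12, 4.96 and 5.29 in inhibitor arrays, against 5.19, 5.41 and 4.96 in control arrays. Both overlapped between groups. Of the 8 genes in this group, 3 had a positive and 5 a negative difference, the median was -0.079 and 0 were called.

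Among keratins of differentiating epidermis, mucosa and cornea, KRT80 and KRT13 stood above both sets of silent genes. KRT80, a type II keratin at the start of the chromosome 12 cluster, read 6.13, 6.03 and 5.97 in inhibitor arrays, against 6.30, 6.12 and 6.19 in control arrays. The groups overlapped by inhibitor replicate 1 and control replicate 2 only, 12 of 14 probe sets were lower in inhibitor arrays, and the difference was -0.16 (SE 0.093, adjusted p 0.788 in limma). KRT13, the type I keratin of oesophageal and oral mucosa, read 6.10, 6.19 and 5.96 in inhibitor arrays, against 6.15, 6.11 and 6.13 in control arrays. Its probe sets ran from 2.93 to 9.60. KRT4, its type II partner in mucosa, was dimmer, at 4.83, 5.03 and 4.89 in inhibitor arrays, against 4.79, 4.89 and 4.57 in control arrays, and its difference of 0.17 (SE 0.11) was -0.0050 with the median of probe sets.

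Of the other members of this group, KRT77, KRT79 and, barely, KRT3 lay between the olfactory receptor and KRTAP percentiles, and the rest lay below both. In KRT77 8 of 10 probe sets exceeded the olfactory receptor level, and in KRT79 6 of 9 did. KRT77 read 5.12, 5.13 and 5.20 in inhibitor arrays, against 5.31, 5.19 and 5.05 in control arrays. KRT79 read 5.00, 4.80 and 4.48 in inhibitor arrays, against 4.57, 4.43 and 4.60 in control arrays, and had the most positive difference of the group, 0.23 (SE 0.14). In both genes the groups overlapped. KRT3, a type II keratin of the cornea, read 4.41, 4.33 and 3.99 in inhibitor arrays, against 4.31, 4.33 and 4.34 in control arrays. KRT1 and KRT10, the pair of suprabasal epidermis, were below the olfactory receptor percentile, with means of 3.73 ± 0.30 and 4.04 ± 0.16 in inhibitor arrays, against 3.77 ± 0.077 and 4.14 ± 0.12 in control arrays (SD, n = 3 each). Of the 14 genes in this group, 7 had a positive and 7 a negative difference, the median was 0.0024 and 0 were called.

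The keratins of the hair follicle root sheath were at the level of silent genes, with 2 of 9 above the olfactory receptor percentile and 0 above the KRTAP percentile. KRT71 read 4.61, 4.57 and 4.93 in inhibitor arrays, against 4.59, 4.47 and 4.59 in control arrays. KRT74 read 4.53, 4.64 and 4.47 in inhibitor arrays, against 4.51, 4.62 and 4.42 in control arrays. Both are type II keratins of the inner root sheath, and both overlapped between groups. KRT28, the dimmest keratin on the array, read 2.64, 2.51 and 2.48 in inhibitor arrays, against 2.59, 3.04 and 2.57 in control arrays, a difference of -0.19 (SE 0.14) that was 0.26 on its brightest probe set. KRT27, an inner root sheath keratin whose groups did not overlap, read 3.95, 3.96 and 4.01 in inhibitor arrays, against 4.15, 4.04 and 4.13 in control arrays. KRT222, which fits no role group and lies at the edge of the chromosome 17 cluster beside SMARCE1, read 2.61, 2.60 and 2.77 in inhibitor arrays, against 2.87, 2.59 and 2.88 in control arrays.

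Hair shaft keratins, the hard keratins of cortex and cuticle, held 4 of the 5 higher keratins named above, and nearly all of them were dim. Of 17, 8 lay above the olfactory receptor percentile and 1, KRT86, above the KRTAP percentile. A positive difference was found for 13 of 17, with a median of 0.13, against 0.049 for the KRTAP genes (39 of 72 positive) and 0.0021 for all genes. Of the 17, 11 to 15 were positive when 1 array was left out, 11 with array weights, 12 with quantile normalization and 13 with median centring, and 0 were called. Leaving out the dimmest 30% of genes kept only 8 of them, of which 5 were positive, with a median of 0.070. At an unadjusted p under 0.05 in limma, 4 of the 17 were higher, but 1 with a trended variance. KRT39 read 3.76, 4.01 and 3.74 in inhibitor arrays, against 3.55, 3.59 and 3.54 in control arrays, with no overlap and a difference of 0.28 (SE 0.10, adjusted p 0.788 in limma).

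KRT35 read 4.21, 4.04 and 3.97 in inhibitor arrays, against 3.83, 3.58 and 3.91 in control arrays. KRT36 read 3.58, 3.67 and 3.92 in inhibitor arrays, against 3.52, 3.41 and 3.48 in control arrays. Neither overlapped between groups, with differences of 0.30 (SE 0.12) and 0.26 (SE 0.11). On their brightest probe sets the differences were 0.0067 for KRT35 and 0.17 for KRT36. Only 1 of 9 probe sets of KRT35 and 3 of 10 of KRT36 exceeded the olfactory receptor level. KRT34 read 3.40, 3.29 and 3.79 in inhibitor arrays, against 3.34, 3.06 and 2.88 in control arrays. It had the largest difference of the family, 0.40 (SE 0.16), on 4 probe sets that were all higher in inhibitor arrays, although inhibitor replicate 2 lay below control replicate 1. Leaving out 1 array, this difference ran from 0.25 to 0.52. All 4 genes lay below the olfactory receptor percentile, at the level of silent genes. KRT85, a type II hair keratin whose groups did not overlap either, averaged 4.36 ± 0.14 in inhibitor and 4.17 ± 0.092 in control arrays (SD, n = 3 each), a difference of 0.19. KRT31, a type I keratin of the cortex, had the most negative difference of the group, -0.19 (SE 0.11), at 3.750, 3.603 and 3.980 in inhibitor arrays, against 3.883, 3.995 and 4.018 in control arrays.

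The hair keratin above both sets of silent genes, KRT86, read 6.42, 6.92 and 6.92 in inhibitor arrays, against 6.14, 6.51 and 6.71 in control arrays. The groups overlapped, and the difference was 0.30 (SE 0.18) on 3 probe sets, of which 1 was at 10.00 and the others at 4.83 and 4.97. Its near relatives were dimmer. KRT81 read 4.70, 5.67 and 5.10 in inhibitor arrays, against 5.30, 5.19 and 5.17 in control arrays, so that the inhibitor arrays lay on both sides of the controls. KRT83 read 4.47, 4.60 and 4.22 in inhibitor arrays, against 4.43, 4.50 and 4.50 in control arrays. These 3 cuticle and cortex keratins also share probe sets, which are described further on.

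KRT33B read 5.71, 6.02 and 5.81 in inhibitor arrays, against 5.79, 5.86 and 5.33 in control arrays. KRT33A read 5.15, 5.22 and 5.42 in inhibitor arrays, against 5.58, 4.75 and 5.07 in control arrays. Both overlapped, as did the next 3 genes. KRT38 read 4.75, 4.67 and 4.76 in inhibitor arrays, against 4.66, 4.90 and 4.50 in control arrays. KRT84 read 4.34, 4.96 and 4.63 in inhibitor arrays, against 4.42, 4.62 and 4.57 in control arrays. KRT37 read 4.37, 4.58 and 3.95 in inhibitor arrays, against 4.24, 4.44 and 4.73 in control arrays. KRT33A and KRT33B are cortex keratins, and for all 5 the order of the arrays mixed the groups.

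**Figure D4:**
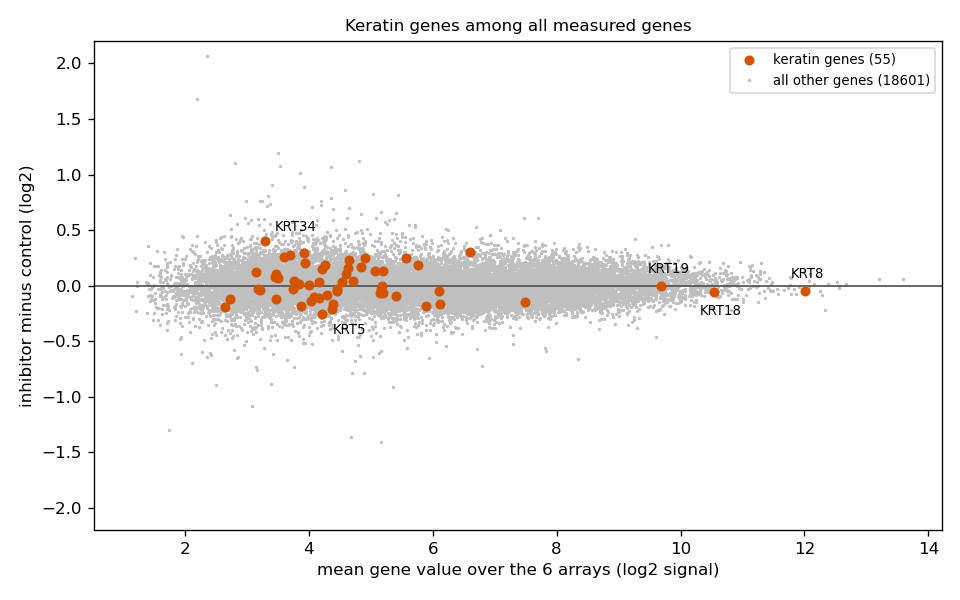
Difference between inhibitor and control arrays (log2) against the mean gene value over the 6 arrays (log2 signal), with the 55 keratin genes in orange and all other genes in grey. KRT8, KRT18 and KRT19 lie at the bright end close to 0, and KRT34 and KRT5, the extremes of the family, lie among dim genes.

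Some keratin values rest on probe sets that cannot be tied to 1 locus. Another 20 probe sets name a keratin together with other genes and were left out of the gene values: 9 name genes of the KRT6 trio, 7 name KRT81 with KRT86 (5 of them also KRT83), and 4 name SMARCE1 with KRT222. Those of the KRT6 trio had means from 5.86 to 9.43 over the 6 arrays, while the 9 probe sets that name a single KRT6 gene ran from 2.34 to 8.34. The brightest of them read 9.87, 9.85 and 8.85 in inhibitor arrays, against 9.55, 9.45 and 9.03 in control arrays. Those naming KRT81 with KRT86 had means from 3.495 to 7.695, on both sides of the olfactory receptor probe set level of 4.68. Those of SMARCE1 and KRT222 were bright, at 9.13 to 11.34, while KRT222 alone was at the level of silent genes. KRT16, KRT17, KRT18, KRT39 and KRT40 also held 29 probe sets whose numbers lay more than 500 away from the longest run of that gene. Of the keratin probe sets, 17 repeated another of the same gene exactly on all 6 arrays, 2 of them in KRT17 and the rest in KRT39 and KRT40. KRT17 and KRT18 are known to have pseudogene copies. With the longest run alone, the mean over 6 arrays was 7.02 in place of 7.49 for KRT17 and 10.10 in place of 10.53 for KRT18, and both stayed above the KRTAP percentile of 5.93.

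The bright keratins included both types that a filament needs. Of 26 type II keratins, KRT8, KRT86 and KRT80 stood above the KRTAP percentile, and of 29 type I keratins KRT18, KRT19, KRT17 and KRT13 did. All type II members and KRT18 are in the cluster of 27 genes on chromosome 12, and the other 28 type I members are on chromosome 17. On chromosome 12 the bright pair KRT8 and KRT18 follows KRT78, which had a mean of 4.16 over the 6 arrays. On chromosome 17 KRT19 lies between KRT15 and KRT9, with means of 4.37 and 3.46. A positive difference was found for 14 of 27 genes on chromosome 12 and for 13 of 28 on chromosome 17, so by sign neither cluster leaned to 1 side. The 6 keratins at an unadjusted p under 0.05 in limma, 5 higher and 1 lower, were all on chromosome 17. The groups did not overlap for 6 genes on chromosome 17 (21.4%) and 1 on chromosome 12 (3.7%), against 12.9% of all genes.

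Genes that work with keratins were examined from lists of other intermediate filament genes, of linker and keratin-binding proteins and of epidermal cornification. Among the 16 other intermediate filament genes, the nuclear lamins LMNA, LMNB1 and LMNB2 were bright, and vimentin (VIM), the filament protein of mesenchymal cells, averaged 4.85 ± 0.12 in inhibitor and 4.76 ± 0.15 in control arrays (SD, n = 3 each). VIM thus lay between the olfactory receptor and KRTAP percentiles. The muscle filament gene DES, with a mean of 7.46 over the 6 arrays, and the neural progenitor filament gene NES, with 6.92, lay above both. Of the 16, 6 had a positive and 10 a negative difference, with a median of -0.061, and 0 were called. The smallest p on the positive side were those of the neuronal filament genes INA, 0.19 (SE 0.093), and NEFH, 0.14 (SE 0.086). On the negative side they were those of NES, 0.17 lower (SE 0.089), and LMNB2, 0.13 lower (SE 0.089).

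Of 21 measured linker and keratin-binding genes, 17 stood above the KRTAP percentile, 5 had a positive and 16 a negative difference, and 0 were called. The 5 were 23.8% of the list, where 50.5% of all genes were positive. The median difference was -0.048. Desmoplakin (DSP), which ties keratin filaments to the desmosome, averaged 10.29 ± 0.10 in inhibitor and 10.34 ± 0.10 in control arrays (SD, n = 3 each). Plakoglobin (JUP), a desmosomal plaque protein, averaged 9.19 ± 0.057 in inhibitor and 9.42 ± 0.086 in control arrays (SD, n = 3 each), without overlap. The plakin periplakin (PPL) averaged 8.27 ± 0.11 in inhibitor and 8.50 ± 0.066 in control arrays (SD, n = 3 each), also without overlap. Their differences were -0.23 (SE 0.090) and -0.24 (SE 0.094), each with an adjusted p of 0.788 in limma. With PKP3, at -0.083 (SE 0.084), they made 3 genes of the list without overlap, all lower (14.3%, against 12.9% of all genes in either direction). The smallest p on the positive side were those of FLG, 0.19 (SE 0.19), and DST, 0.096 (SE 0.11). Of 20 measured cornification genes, 12 had a positive and 7 a negative difference, the median was 0.041 and 0 were called. KRTDAP and CASP14 had 0.26 (SE 0.15) and 0.24 (SE 0.16), IVL and FLG2 -0.53 (SE 0.29) and -0.27 (SE 0.27), all on dim signals.

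Epithelial markers were bright in both groups. All 10 measured epithelial markers stood above the KRTAP percentile, with EPCAM at 10.57 ± 0.057 in inhibitor and 10.36 ± 0.13 in control arrays (SD, n = 3 each). Markers of squamous epithelium, which would carry KRT5 and KRT14, were mostly low, with 0 of 9 above the KRTAP percentile. TP63 and DSG3 had means of 3.49 and 3.04 over the 6 arrays. However, 2 of the 9 lay above the olfactory receptor percentile, FLG with a mean of 5.30 and CALML5 with 5.23. The mean of the squamous list ran from 3.75 to 3.81 in inhibitor arrays and from 3.71 to 3.87 in control arrays. The mean of the fibroblast list ran from 3.93 to 4.06 in inhibitor arrays and from 3.89 to 4.08 in control arrays. That of the endothelial list ran from 3.55 to 3.60 in inhibitor arrays and from 3.60 to 3.80 in control arrays, and the part of these lists in the keratin values was not tested. The fibroblast, leukocyte and liver lists each held 1 gene above the KRTAP percentile. These were COL1A1, a collagen gene of mesenchymal cells, with a mean of 6.38 over the 6 arrays, LYZ with 8.82 and FGB with 7.13. Over all probe sets of the table, array medians lay between 6.02 and 6.07. Across genes, control replicate 1 correlated with the other arrays at 0.9915 on average, the lowest of the 6, and the remaining arrays at 0.9933 to 0.9938.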

How the data were processed

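The deposited table holds log2 values of 257430 probe sets on 6 arrays; RMA and 2 Affymetrix programs (Expression Console, Transcriptome Analysis Console) are listed, without settings, in the submitters' processing notes. Because RMA equalizes arrays, a shift common to most genes cannot be seen. The platform annotation gave 1 symbol for 224320 probe sets, several for 10159, and 22951 were unnamed here. Of 18701 symbols, 2533 were updated through RefSeq synonyms. Gene values are means of single-gene probe sets, with no filter on dim genes. Precision is limited by there being 3 arrays per group.

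Groups were compared in limma 3.58.1 (R 4.3.3; lmFit, eBayes, Benjamini-Hochberg over all genes, threshold 0.05), tested on simulated data with 200 of 18656 genes changed (5.35% false calls). Named keratins are those above the olfactory receptor percentile, the 5 with the smallest p each way, and the extremes of each role group; of the other lists, up to 2 genes each way. Other genes named were chosen after their values were seen. Members and lists were chosen with earlier results of these data known. Some listed genes are not reported here. Alternatives covered the replicate block, each array left out, probe set summaries, dim filters, normalizations, variance estimates, array weights and silent-gene levels.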

Additional observations from a re-analysis of the deposited data

How the results depend on the processing

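Under each of 18 alternative fits, limma called 0 keratins and 0 of the other intermediate filament and linker genes, with a smallest adjusted p of 0.532 for a named keratin, and single probe sets gave 0 calls among 473, with 37 at an unadjusted p under 0.05 (7.82%, against 6.21% of all). Reading only the longest run of probe set numbers and counting identical probe sets once were chosen after seeing the data and turned no sign. With the longest run alone, KRT16 was no longer at an unadjusted p under 0.05 in limma. The replicate block gave 0 called keratins and 4 at an unadjusted p under 0.05. Deviations of same-numbered arrays correlated at -0.032, -0.040 and 0.17, so replicate numbers were treated as names only. The 6 keratins at an unadjusted p under 0.05 became 1 with a trended variance and 1 to 6 leaving out arrays. Without the dimmest 30% of genes they were 2 of the 28 keratins kept. With the median of probe sets 3 were higher and 4 lower, and with array weights 6 were higher and 1 lower. The 29 keratins above silent genes became 17 at the 99th percentile, 7 with the KRTAP level and 28 to 31 leaving out arrays. The median difference was 0.143 with the brightest probe set and ran from -0.030 to 0.043 leaving out arrays. The cause was not tested.

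Of 37 named keratins, 11 kept their sign under every alternative. With the brightest probe set, the sign turned for KRT5 (0.16), KRT6B (-0.057), KRT7 (0.22), KRT8 (0.010), KRT15 (0.053), KRT17 (0.20), KRT20 (0.15), KRT28 (0.26) and KRT83 (0.040). With the median of probe sets it turned for KRT3 (0.023), KRT4 (-0.0050), KRT6A (-0.053), KRT6B (-0.050), KRT14 (0.15), KRT18 (0.073), KRT20 (0.21), KRT38 (-0.58), KRT81 (0.12) and KRT83 (0.11). Without the dimmest 30% of probe sets it turned for KRT3 (0.048), KRT6A (-0.11), KRT6B (-0.053), KRT13 (0.0052), KRT18 (0.060), KRT20 (0.15), KRT28 (0.26) and KRT71 (-0.023). Scaling turned KRT19 (0.0017) and KRT20 (0.0019) with median centring and KRT20 (0.0031) and KRT74 (-0.0032) with quantile normalization. Array weights turned KRT19 (0.046) and KRT38 (-0.037). Leaving out 1 array, differences ran from -0.099 to 0.016 for KRT13, -0.13 to 0.044 for KRT18, -0.065 to 0.051 for KRT19, -0.10 to 0.11 for KRT20, -0.11 to 0.037 for KRT23, -0.17 to 0.042 for KRT3, -0.057 to 0.36 for KRT33A, -0.31 to 0.0078 for KRT37, -0.057 to 0.15 for KRT38, -0.18 to 0.048 for KRT6C, -0.018 to 0.083 for KRT74, -0.10 to 0.033 for KRT77, -0.32 to 0.16 for KRT81, -0.13 to 0.058 for KRT83 and -0.055 to 0.26 for KRT84. Differences that kept their sign whichever array was left out also moved. Examples ran from 0.25 to 0.52 for KRT34, -0.34 to -0.15 for KRT5, 0.14 to 0.47 for KRT86 and -0.27 to -0.037 for KRT28. Signals near the silent-gene levels limit what the dim keratins can show.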
